A study of Sus scrofa with 24 samples.

Results

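The genes described here are 10 genes of the ATF4 stress response and of serine synthesis in pig bronchial epithelial cells: ATF4, DDIT3, TRIB3, PPP1R15A, ASNS, PHGDH, PSAT1, PSPH, SHMT2 and SLC7A5. They were named by symbol, and 8 of the 10 had a row whose pig Ensembl identifier carries that symbol, among 25880 pig genes in the deposited count table. ATF4 and DDIT3 had no such row, and each was read from the row that lies over the RefSeq gene of that name. These are called the ATF4 row and the DDIT3 row below and are left out of every count of the 8. The epithelium was taken from the bronchi of wild type pigs aged 1 month and grown at an air-liquid interface. In the order used below, the groups were SB203580 plus flagellin, flagellin, and PBS at 24 h, and the same 3 treatments at 2 h, with 4 libraries each and 24 in all. Flagellin, the bacterial flagellum protein that the receptor TLR5 recognises, was given at 100 ng/ml. SB203580, an inhibitor of p38 MAP kinases, was given at 20 µM for 1 h beforehand, and the flagellin and PBS cultures had its solvent DMSO for that hour. Cultures with SB203580 and no flagellin were not analysed here, so an effect of the inhibitor that does not depend on flagellin cannot be told apart from an effect on the flagellin response.

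Cells that lack amino acids, accumulate unfolded protein in the endoplasmic reticulum or sense some viral and mitochondrial signals phosphorylate the initiation factor eIF2, which lowers protein synthesis in general and raises translation of the transcription factor ATF4. ATF4 then switches on genes for amino acid import, amino acid synthesis and tRNA charging, together with TRIB3 and PPP1R15A, which limit the response. Much of this control acts on translation of ATF4, so its messenger RNA level need not follow its activity. The serine synthesis enzymes PHGDH, PSAT1 and PSPH turn a glycolytic intermediate into serine, and SHMT2 passes the carbon of serine on to mitochondrial one-carbon metabolism.

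Libraries held 26345945 to 36267289 counts in pig genes. The replicate numbers split into 2 sets by the Y-linked gene EIF1AY, which never exceeded 0.0284 CPM (counts scaled to library size with TMM factors) among the 12 libraries numbered 3 or 4, while those numbered 1 or 2 had 17.9 to 32.2 CPM. The sets therefore come from different animals. The labels do not say whether the replicates within a set were separate animals, so p-values reflect only the variation among these cultures, part of which may be technical. The general epithelial markers, of which 6 of 8 had a row, averaged 7.54 to 8.13 log2 CPM over the libraries. The ciliated cell markers, 13 of 14 with a row, averaged -0.1 to 2.31, and the leukocyte markers lay at or below 0.26, with CD3E at 0 in every library. Within replicates 1 and 2, the markers of club and secretory cells averaged 5.25 to 6.52 log2 CPM for 5 libraries and 7.22 to 7.83 for the other 7. The ciliated cell markers were also lower in the 5, at -0.04 to 0.77 log2 CPM against 1.5 to 2.31. Squamous cell markers averaged 7.08 to 8.8 log2 CPM in the 5 and 6 to 7.12 in the other 7. At 24 h the 5 were both SB203580 plus flagellin libraries of that set and number 2 of flagellin, and at 2 h they were number 1 of SB203580 plus flagellin and number 2 of PBS. Many results of the genes named above that rest on them are given with and without them. Results of the other pathway genes are given with them alone. Without them SB203580 plus flagellin keeps only replicates 3 and 4 at 24 h and replicates 2, 3 and 4 at 2 h. Flagellin at 24 h and PBS at 2 h keep replicates 1, 3 and 4. The sets are unbalanced in these groups, so such values are also given from a fit with a term for the replicate set at each time. In these bulk samples, fewer cells of a type and less RNA per cell cannot be told apart.

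Coordinates are those of the deposited table, whose pig assembly is not given in the sources used here. The ATF4 row (ENSSSCG00000000084) spans chromosome 5, 8738880 to 8745368, on the minus strand, and the DDIT3 row (ENSSSCG00000040751) spans chromosome 5, 22781192 to 22789825, also on the minus strand. Of the exon bases in the DDIT3 row, 33.3% are shared with MARS1 on the other strand, and whether the counting used strand is not stated, so reads of the methionyl-tRNA synthetase cannot be told apart from reads of DDIT3 there. Only 27.4% of the exon bases of that row and 29.8% of those of the ATF4 row lie inside the RefSeq gene, and the values of both rows are uncertain for that reason. TRIB3 (ENSSSCG00000039862) spans chromosome 17, 34777324 to 34815987, on the minus strand, with 61.1% of its exon bases inside the RefSeq gene and 0.7% shared with TBC1D20 on the other strand. The span of that row also overlaps the RefSeq genes RBCK1 and TBC1D20, and it holds 68.2% of the span of the RefSeq TRIB3 gene. PPP1R15A (ENSSSCG00000003155) spans chromosome 6, 54172050 to 54179043, on the plus strand, with 8.8% of its exon bases shared with TULP2 on the other strand and 39.2% inside its own RefSeq gene. Exon bases outside the RefSeq gene make the values of TRIB3 and PPP1R15A uncertain as well. PSPH (ENSSSCG00000007748) spans chromosome 3, 16877780 to 16903058, on the plus strand, and shares 9.6% of its exon bases with an unnamed row. The other 5 rows shared no exon bases with another row. They were ASNS (ENSSSCG00000015340, chromosome 9, 77318341 to 77336290, minus), PHGDH (ENSSSCG00000006717, chromosome 4, 101445977 to 101478147, minus), PSAT1 (ENSSSCG00000005287, chromosome 1, 231146345 to 231171361, plus), SHMT2 (ENSSSCG00000037077, chromosome 5, 22534784 to 22539962, plus) and SLC7A5 (ENSSSCG00000032996, chromosome 6, 1545941 to 1574285, plus).

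All 10 rows passed the filter on low counts and were expressed in every library. Levels of different genes were set side by side per kilobase of exon in the row. For the ATF4 row, the DDIT3 row, PPP1R15A and TRIB3, only 29.8%, 27.4%, 39.2% and 61.1% of those exon bases lie inside the RefSeq gene. Their places in the order below are therefore uncertain. The ATF4 row had a median of 54.0 CPM per kb over the 24 libraries. ASNS followed with 51.6 CPM per kb and PSAT1 with 45.1. PHGDH (20.3 CPM per kb), SHMT2 (17.1), PPP1R15A (16.1) and SLC7A5 (15.5) formed a middle tier, PSPH (7.89) and TRIB3 (4.53) lay below it, and the DDIT3 row was lowest with 1.66. Among the 8 genes, SLC7A5 had the widest spread of group means on the log2 scale (1.44 between the highest and the lowest group) and SHMT2 the narrowest (0.40). When the 6 groups were ordered by mean CPM within each gene, neighbouring groups differed by more than the larger of their SDs in 3 of 40 pairs. These were SB203580 plus flagellin at 24 h over flagellin at 24 h for PHGDH, SB203580 plus flagellin at 24 h under PBS at 2 h for SLC7A5, and SB203580 plus flagellin at 2 h over PBS at 2 h for TRIB3, and the ranges overlapped in each. The plot of levels by library shows every value.

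**Figure D1:**
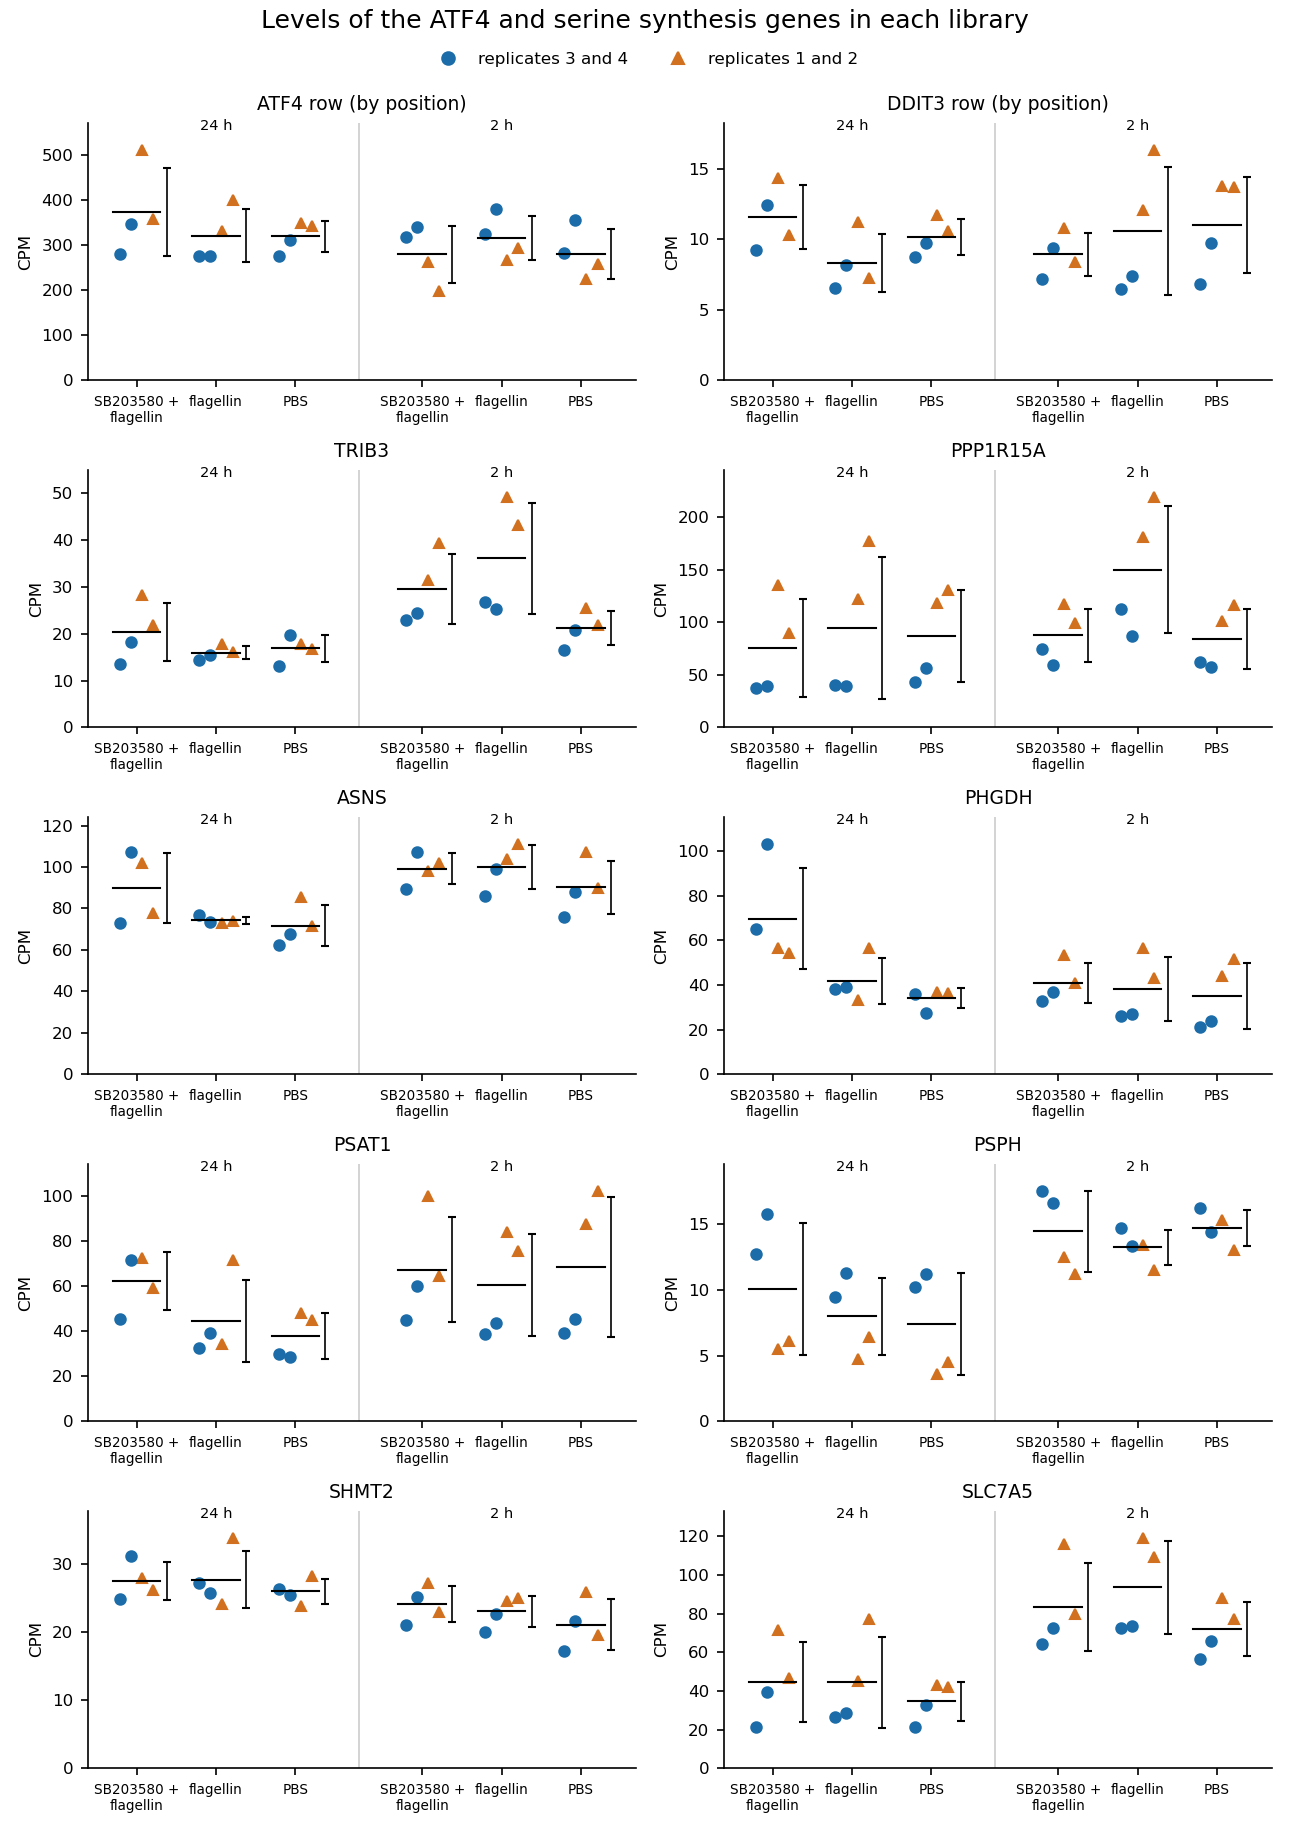
CPM (vertical axes, from 0) of the 10 rows in each of the 24 libraries, for 3 treatments at 24 h and at 2 h; circles are replicates 3 and 4, triangles replicates 1 and 2, lines the mean of 4 libraries and bars the SD. TRIB3 stood at 25.4 to 49.2 CPM with flagellin at 2 h, and PSPH at 24 h separated into 9.42 to 15.8 CPM in replicates 3 and 4 and 3.6 to 6.45 CPM in replicates 1 and 2.

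Each comparison asked which of these genes flagellin, the inhibitor or the time in culture moved. A gene is said to have risen or fallen where its adjusted p in edgeR was under 0.05 over all 14172 genes tested. At 2 h, flagellin against PBS gave 0 of the 8 genes past the threshold with no block, where 0.325% of all genes passed, and 1 of 8 (TRIB3) in a fit with the replicate number as a block, where 1.07% passed. A term for the replicate set at each time gave 2 of 8 (TRIB3 and PPP1R15A), where 2.24% passed. SB203580 plus flagellin against flagellin at 2 h gave 0, 0 and 1 of 8 (PPP1R15A) in the 3 fits, where 0.00706%, 0.0353% and 0.374% of all genes passed. At 24 h the same comparison gave 0 of 8 in each fit, where 0%, 0% and 0.0917% of all genes passed, and flagellin against PBS gave 0 of 8 in each, where 0% passed. SB203580 plus flagellin against PBS gave 0, 0 and 1 of 8 (PHGDH) at 24 h, where 0.00706%, 0.0635% and 0.459% passed, and 0 of 8 in each fit at 2 h, where 0.183%, 0.804% and 1.98% passed. DESeq2 also called 0 of 8 in these 6 comparisons. At an unadjusted p under 0.05 in edgeR with no block, 1 of 8 lay past the threshold for flagellin against PBS at 2 h, where 5.09% of all genes did, 2 of 8 for SB203580 plus flagellin against flagellin at 24 h (2.86% of all genes) and 3 of 8 for SB203580 plus flagellin against PBS at 24 h (4.25%). In the other 3 comparisons 0 of 8 did, where 0.790% to 4.75% of all genes did. The median log2 fold change of the 8 with no block was 0.14 for flagellin against PBS, 0.02 for SB203580 plus flagellin against flagellin and 0.16 for SB203580 plus flagellin against PBS at 2 h, and 0.12, 0.31 and 0.34 in the same order at 24 h, while that of all genes lay between 0.0 and 0.02. The PBS cultures serve as the control in more than 1 of these comparisons, and the flagellin cultures stand in 2 of them.

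Time in culture gave more calls. At 24 h against 2 h with flagellin, 2 of 8 genes (TRIB3 and ASNS) fell and 0 rose with no block, where 3.68% of all genes fell, 4.23% rose and 7.90% passed in either direction. With the replicate block 5 of 8 fell (SLC7A5, PPP1R15A, ASNS, PSPH and TRIB3) and 0 rose, where 9.26% of all genes fell and 9.54% rose (18.8% in all). In PBS, 0 of 8 passed by edgeR with no block, where 4.88% of all genes fell and 5.28% rose (10.2% in all). There 5 of 8 lay at an unadjusted p under 0.05, where 24.4% of all genes did, and DESeq2 called 2 of 8. With the block 4 of 8 fell (PSAT1, SLC7A5, ASNS and PSPH) and 0 rose, where 11.4% of all genes fell and 11.0% rose (22.5% in all). For SB203580 plus flagellin, 0 of 8 passed by edgeR with no block, where 3.18% of all genes fell and 3.70% rose (6.88% in all). There 3 of 8 lay at an unadjusted p under 0.05, where 20.3% of all genes did, and DESeq2 called 0. With the block 2 of 8 fell (SLC7A5 and TRIB3) and 1 rose (PHGDH), where 8.42% of all genes fell and 8.67% rose (17.1% in all). With the set term 4 of 8 passed for SB203580 plus flagellin, 5 of 8 for flagellin and 5 of 8 in PBS, where 27.1%, 28.9% and 33.2% of all genes passed. The 3 time comparisons share no library, and SLC7A5 was the 1 gene of the 8 that fell in all 3 with the block. With the set term both SLC7A5 and PSPH fell in all 3. The median of the 8 with no block was -0.18 with SB203580 plus flagellin, -0.56 with flagellin and -0.33 in PBS, beside 0.01, 0.01 and -0.01 over all genes. Summed levels of the endothelial markers, 4 of 6 with a row, were also higher at 24 h with flagellin and in PBS. They were 209 to 422 CPM at 24 h and 146 to 204 CPM at 2 h with flagellin. In PBS they were 342 to 513 CPM at 24 h and 89.4 to 257 CPM at 2 h. With SB203580 plus flagellin the ranges overlap, at 145 to 445 CPM at 24 h and 80.9 to 161 CPM at 2 h. The mean log2 CPM of the 4 markers lay between -0.07 and 1.24 over the libraries, so the sums do not come from all 4 alike. The part of these markers in the results was not tested.

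**Figure D2:**
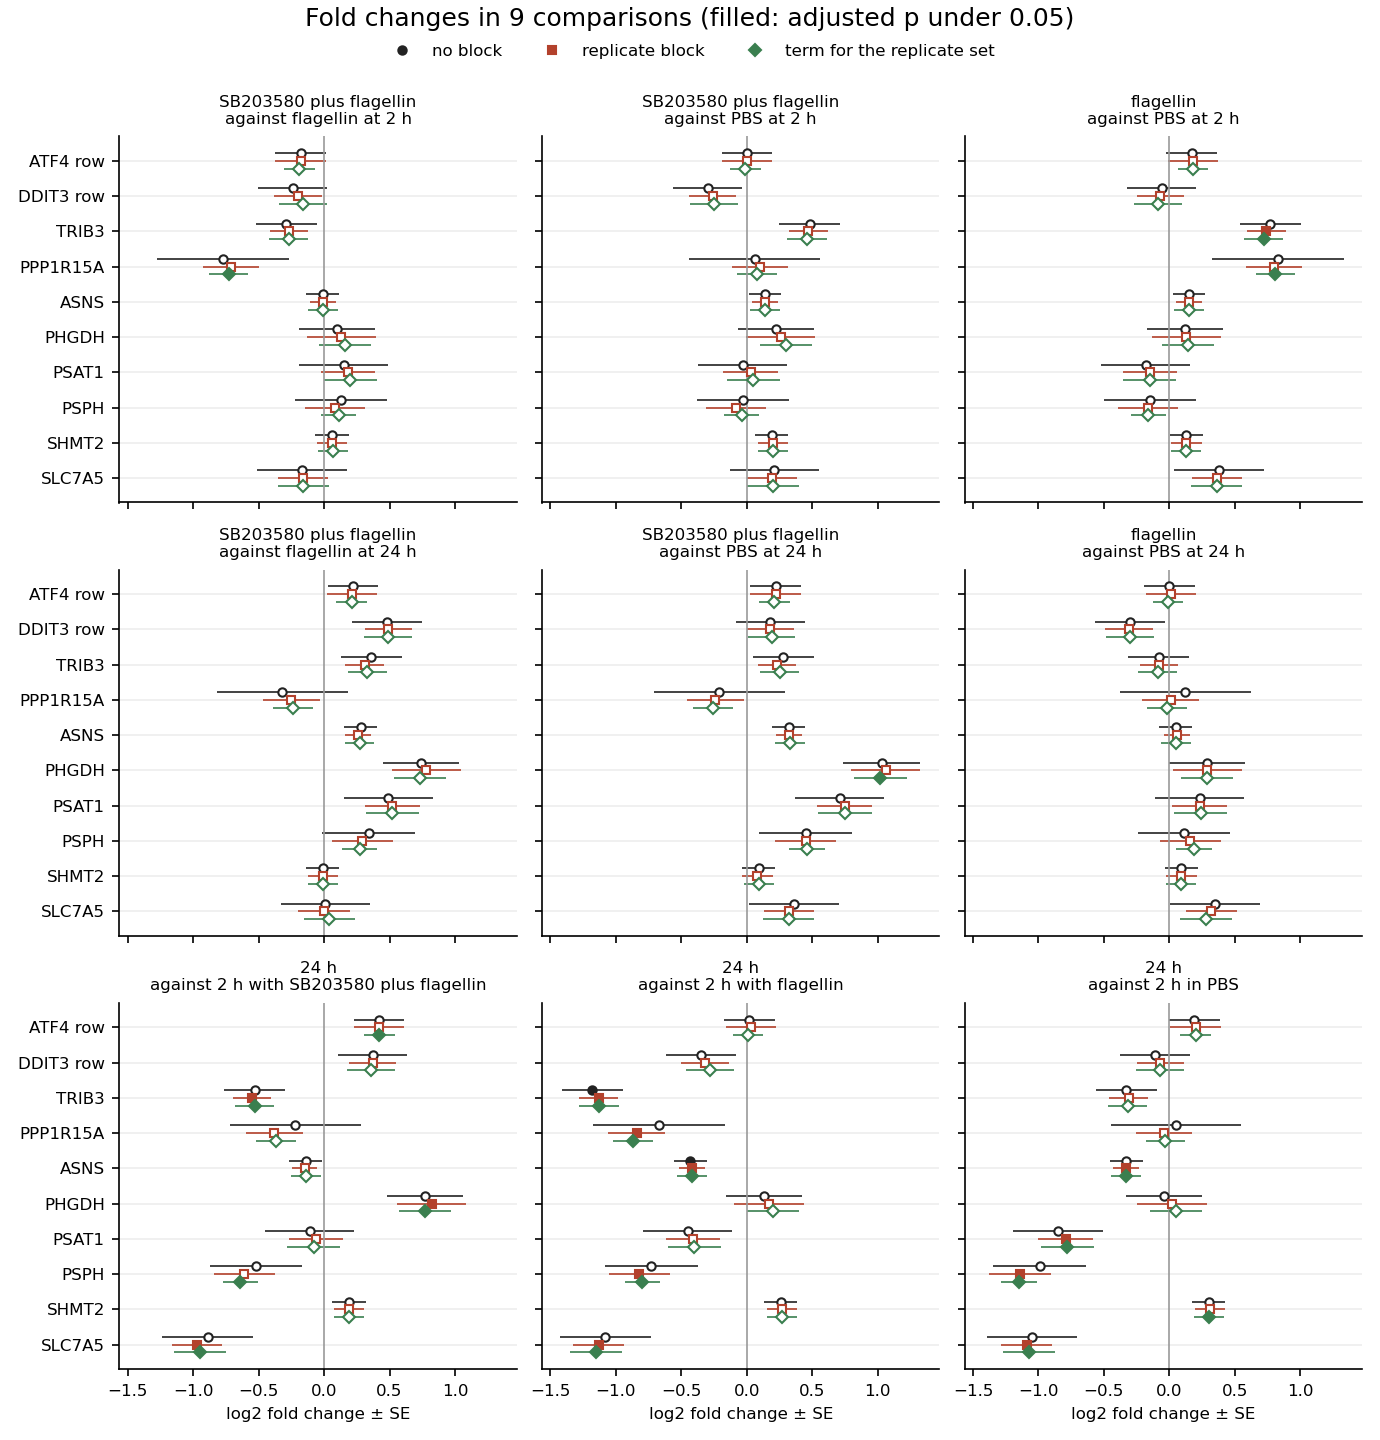
Log2 fold changes with their SE (horizontal axes) for the 10 rows in 9 comparisons, from edgeR with no block, with the replicate block and with a term for the replicate set; filled symbols have an adjusted p under 0.05. Without a block the filled symbols are TRIB3 (-1.18) and ASNS (-0.43) at 24 h against 2 h with flagellin.

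ATF4 is the transcription factor at the centre of the response, and DDIT3, also known as CHOP, is a target of it that acts in prolonged endoplasmic reticulum stress. The ATF4 row had 373 ± 97.6 CPM with SB203580 plus flagellin, 320 ± 58.7 CPM with flagellin and 320 ± 34.0 CPM in PBS at 24 h (SD, n = 4 each). At 2 h it had 279 ± 63.6 CPM with SB203580 plus flagellin, 316 ± 48.4 CPM with flagellin and 280 ± 56.1 CPM in PBS. The 4 libraries with SB203580 plus flagellin had 510, 357, 279 and 346 CPM at 24 h, and 263, 197, 317 and 340 CPM at 2 h, in the order of replicates 1 to 4. The 2 times overlap, and only in replicates 1 and 2 is the value at 24 h well above that at 2 h. The log2 fold change of 0.42 for 24 h against 2 h (SE 0.193, adjusted p = 0.226 in edgeR) did not pass with no block or with the replicate block. With the term for the replicate set the row rose (adjusted p = 0.0115), a call lost without replicate 2 at 2 h or replicate 1 at 24 h (adjusted p of up to 0.0605). Within replicates 3 and 4 the log2 fold change was -0.09 (adjusted p = 0.68), and within replicates 1 and 2 the row rose by 0.92 (adjusted p = 0.0192). Without the 5 libraries low in secretory markers it was 0.13 with no block and 0.37 (adjusted p = 0.0478) with the set term. Over the 9 comparisons the ATF4 row ranged between -0.18 and 0.42 on the log2 scale with no block. The DDIT3 row ranged between -0.35 and 0.48, with none past the threshold in any of the 3 fits, and its group means lay between 8.29 and 11.6 CPM.

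TRIB3, a pseudokinase that binds ATF4 and limits its activity, was the 1 gene of the 8 to pass in a treatment comparison with the replicate block. At 2 h it had 31.6, 39.4, 22.9 and 24.4 CPM in replicates 1 to 4 with SB203580 plus flagellin, 49.2, 43.2, 26.7 and 25.4 CPM with flagellin, and 25.5, 21.8, 16.6 and 20.8 CPM in PBS. Each replicate was higher with flagellin than in PBS, although replicate 4 with flagellin lay just under replicate 1 in PBS, so that the ranges overlap slightly. At 24 h it had 28.2, 21.9, 13.5 and 18.2 CPM with SB203580 plus flagellin, 17.9, 16.1, 14.5 and 15.4 CPM with flagellin, and 17.8, 16.8, 13.1 and 19.8 CPM in PBS. By 24 h the flagellin and PBS libraries lay in the same range.

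For flagellin against PBS at 2 h, the log2 fold change of TRIB3 was 0.77 (SE 0.233, adjusted p = 0.346 in edgeR with no block). With the replicate block TRIB3 rose by 0.74 (SE 0.148, adjusted p = 0.0138), and with the set term by 0.72 (SE 0.150, adjusted p = 0.0117). Fitted within a set, the value was 0.49 (adjusted p = 0.396) for replicates 3 and 4 and 0.96 (adjusted p = 0.128) for replicates 1 and 2. Neither passed. Leaving out the 5 libraries low in secretory markers gave 0.79 (adjusted p = 0.396) with no block and 0.63 (adjusted p = 0.0121) with the set term. The call with the block was lost without number 1 or 2 of flagellin or number 2 or 3 of PBS, with log2 fold changes between 0.65 and 0.75 in those 4 fits. The call with the set term was lost without number 1 of flagellin or number 2 or 3 of PBS (adjusted p of up to 0.0597). SB203580 plus flagellin against PBS at 2 h gave 0.48 (adjusted p = 1.0), higher in 4 of 4 replicates. Between 24 h and 2 h with flagellin TRIB3 fell by 1.18 on the log2 scale (SE 0.235, adjusted p = 0.00381), lower in 4 of 4 replicates with no overlap, and the call held without any 1 of the 8 libraries. The same difference in SB203580 plus flagellin cultures was -0.53 (adjusted p = 0.194) with no block and -0.55 (adjusted p = 0.0148) with it, a call lost without replicate 2 at 2 h or replicate 3 at 24 h. Without the 5 libraries low in secretory markers it was -0.88 with no block and fell by 0.88 (adjusted p = 0.00184) with the set term. The change of the flagellin effect between the 2 times was tested directly: 0 of the 8 genes passed in any of the 3 fits, where 0.0423% of all genes passed with no block, 0.191% with the block and 0.268% with the set term, 1 of 8 lay at an unadjusted p under 0.05 with no block, where 1.66% of all genes did, and DESeq2 called 0. For TRIB3 that difference was -0.85 (SE 0.330, adjusted p = 1.0).

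PPP1R15A, also known as GADD34, is the regulatory subunit that brings protein phosphatase 1 to eIF2 and so ends the translational block. At 2 h it had 117, 99.1, 74.9 and 59.8 CPM in replicates 1 to 4 with SB203580 plus flagellin, 181, 219, 113 and 87.1 CPM with flagellin, and 101, 116, 62.3 and 57.9 CPM in PBS. In each replicate the flagellin library was the highest of the 3, while the SB203580 plus flagellin and PBS libraries lay close together. The groups overlap, with replicates 1 and 2 above replicates 3 and 4 in each treatment. The log2 fold change for flagellin against PBS was 0.83 (SE 0.503, adjusted p = 1.0 in edgeR) with no block and 0.80 with the block, and neither passed. With the set term it rose by 0.81 (SE 0.152, adjusted p = 0.00479), a call that held without any 1 of the 8 libraries. Within replicates 3 and 4 it was 0.75 (adjusted p = 0.0333), and within replicates 1 and 2 it was 0.89 (adjusted p = 0.332). Leaving out the 5 libraries low in secretory markers gave 1.04 (adjusted p = 0.676) with no block. The set term without them gave 0.86 (adjusted p = 0.000725).

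For SB203580 plus flagellin against flagellin at 2 h, PPP1R15A stood at -0.77 on the log2 scale with no block (SE 0.503, adjusted p = 1.0) and fell by 0.73 (SE 0.152, adjusted p = 0.037) with the set term. That call held without number 3 of SB203580 plus flagellin or number 4 of flagellin and was lost without any other of the 8 libraries, with adjusted p between 0.0601 and 0.161. Without the 5 libraries low in secretory markers it was -0.75 (adjusted p = 0.00578) with the set term. At 24 h PPP1R15A had 135, 90.0, 37.7 and 39.5 CPM with SB203580 plus flagellin, 122, 177, 39.9 and 39.6 CPM with flagellin, and 118, 131, 42.7 and 56.4 CPM in PBS. No treatment stood apart there. For 24 h against 2 h with flagellin it had -0.67 (adjusted p = 0.496) with no block and fell by 0.84 (SE 0.217, adjusted p = 0.0117) with the block, lower in 4 of 4 replicates. The call with the block was lost without replicate 3 of flagellin at 24 h (adjusted p = 0.0543). The value was -1.33 within replicates 3 and 4, -0.42 within replicates 1 and 2, and -1.16 without the 5 libraries low in secretory markers, with no block. The set term gave -1.05 (adjusted p = 1.57e-05) without the 5 libraries. PPP1R15A also fell with the set term over all libraries (adjusted p = 0.00032), a call that held without any 1 of the 8. The change of the flagellin effect between the times for PPP1R15A was -0.84 (SE 0.215, adjusted p = 0.189) with the set term. It passed in that fit without replicate 2 of flagellin at 24 h (-1.01, adjusted p = 0.016) and without the 5 libraries (-1.06, adjusted p = 0.00852).

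ASNS makes asparagine from aspartate and is a classic ATF4 target. With flagellin at 24 h it had 72.9, 73.9, 76.8 and 73.5 CPM in replicates 1 to 4, and at 2 h 104, 111, 85.9 and 99.0 CPM. Every library at 24 h lay below every library at 2 h. ASNS fell by 0.43 on the log2 scale between them (SE 0.126, adjusted p = 0.0408 in edgeR). That call held without replicate 3 at 2 h and was lost without any other of the 8 libraries, with adjusted p between 0.0757 and 0.122, while with the block (adjusted p = 0.00694) it held in all 8. It was also lost with no block without the 5 libraries low in secretory markers (-0.43, adjusted p = 0.0742). The set term without them gave -0.4 (adjusted p = 0.0196). In PBS ASNS averaged 71.8 ± 9.85 CPM at 24 h and 90.2 ± 12.8 CPM at 2 h (SD, n = 4 each), and fell by 0.33 with the block (adjusted p = 0.0242; adjusted p = 0.105 with none). That call with the block was lost without replicate 2, 3 or 4 at 24 h or replicate 1 or 2 at 2 h, with adjusted p of up to 0.0891. Leaving out the 5 libraries gave -0.33 (adjusted p = 0.161) in PBS with no block and -0.36 (adjusted p = 0.0261) with the set term. SB203580 plus flagellin cultures averaged 90.0 ± 17.0 CPM at 24 h and 99.2 ± 7.43 CPM at 2 h, and the ranges overlap. At 24 h SB203580 plus flagellin against PBS gave 0.32 (SE 0.126, adjusted p = 1.0), higher in 4 of 4 replicates.

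PHGDH, the enzyme that commits carbon to serine synthesis, was highest with SB203580 plus flagellin at 24 h. It had 56.5, 54.2, 65.2 and 103 CPM in replicates 1 to 4 there, 33.2, 56.7, 38.3 and 39.2 CPM with flagellin, and 36.9, 36.3, 36.0 and 27.4 CPM in PBS. All 4 libraries with SB203580 plus flagellin lay above all 4 in PBS, and replicate 2 with flagellin lay among them. At 2 h it had 53.5, 40.9, 32.7 and 36.9 CPM with SB203580 plus flagellin, 56.4, 43.0, 26.3 and 27.2 CPM with flagellin, and 43.8, 51.6, 21.2 and 24.1 CPM in PBS. The treatments overlap at 2 h, where replicates 3 and 4 lie below replicates 1 and 2.

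For SB203580 plus flagellin against PBS at 24 h the log2 fold change of PHGDH was 1.03 with no block (SE 0.292, adjusted p = 1.0 in edgeR, not past the threshold), and it rose by 1.02 (SE 0.201, adjusted p = 0.0319) with the set term. The call with the set term was lost without any 1 of the 4 PBS libraries, with adjusted p of at most 0.111. Within replicates 3 and 4 the value was 1.39, within replicates 1 and 2 it was 0.58, and without the 5 libraries low in secretory markers it was 1.3 with no block and 1.31 (adjusted p = 0.0423) with the set term. Against flagellin at 24 h it was 0.74 (SE 0.291, adjusted p = 1.0), higher in 3 of 4 replicates, with 1.1 within replicates 3 and 4, 0.3 within replicates 1 and 2, and without the 5 libraries 1.18 with no block and 1.19 (adjusted p = 0.085) with the set term. Between 24 h and 2 h with SB203580 plus flagellin it was 0.77 (adjusted p = 0.124) with no block, and PHGDH rose by 0.82 with the block (SE 0.265, adjusted p = 0.0383), with no overlap between the times. The call with the block was lost without replicate 3 or 4 at 24 h or replicate 2, 3 or 4 at 2 h, with log2 fold changes between 0.47 and 0.82 in those 5 fits. Within replicates 3 and 4 it was 1.26 and within replicates 1 and 2 it was 0.24. Without the 5 libraries, where replicates 3 and 4 stand alone at 24 h, PHGDH rose by 1.18 (adjusted p = 0.0427) with no block and by 1.07 (adjusted p = 0.00363) with the set term. The change of the SB203580 effect between the times was tested directly: 0 of the 8 genes passed in any of the 3 fits, where 0% of all genes passed, 0 of 8 lay at an unadjusted p under 0.05 with no block, where 0.797% of all genes did, and DESeq2 called 0. For PHGDH that difference was 0.64 (SE 0.410, adjusted p = 1.0).

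PSAT1, the aminotransferase of the next step, had 72.6, 58.9, 45.3 and 71.6 CPM with SB203580 plus flagellin at 24 h, 34.4, 71.4, 32.3 and 39.3 CPM with flagellin, and 48.0, 45.1, 29.7 and 28.6 CPM in PBS. Each replicate with SB203580 plus flagellin exceeded its PBS counterpart, and the ranges overlap. The log2 fold change against PBS was 0.71 (SE 0.341, adjusted p = 1.0) and against flagellin 0.49 (SE 0.340, adjusted p = 1.0), and neither passed in any of the 3 fits. Leaving out the 5 libraries low in secretory markers gave 0.63 (adjusted p = 0.554) against PBS with no block. The set term then gave 0.85 (adjusted p = 0.255). In PBS at 2 h PSAT1 had 87.5, 102, 39.0 and 45.4 CPM. Against these, the PBS libraries at 24 h were lower in 4 of 4 replicates. The log2 difference was -0.85 with no block (SE 0.342, adjusted p = 0.123) and -0.79 with it (SE 0.210, adjusted p = 0.0114). That call was lost without replicate 2 of PBS at 2 h (adjusted p = 0.0513). Leaving out the 5 libraries gave -0.6 (adjusted p = 0.252) with no block and -0.68 (adjusted p = 0.0146) with the set term.

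PSPH, the phosphatase that releases serine, had lower values at 24 h in all 12 pairs of libraries with the same treatment and number. In PBS it had 3.6, 4.53, 10.2 and 11.2 CPM at 24 h in replicates 1 to 4, and 15.3, 13.0, 16.2 and 14.4 CPM at 2 h. With flagellin it had 4.72, 6.45, 9.42 and 11.3 CPM at 24 h and 13.4, 11.5, 14.7 and 13.3 CPM at 2 h. With SB203580 plus flagellin it had 5.53, 6.14, 12.7 and 15.8 CPM at 24 h and 12.5, 11.2, 17.5 and 16.6 CPM at 2 h. The gap between the times was wider in replicates 1 and 2 than in replicates 3 and 4. The times do not overlap in PBS or with flagellin, and they do with SB203580 plus flagellin. In PBS the log2 fold change was -0.99 (SE 0.356, adjusted p = 0.0816, or 0.0464 without replicate 4 at 24 h) with no block, and PSPH fell by 1.14 (SE 0.236, adjusted p = 0.00236) with it. With flagellin it was -0.73 (adjusted p = 0.237) with no block, and PSPH fell by 0.82 (adjusted p = 0.02) with it, a call lost without replicate 1 or 3 at 24 h or replicate 1 or 2 at 2 h (adjusted p of up to 0.0795). With SB203580 plus flagellin it was -0.52 (adjusted p = 0.449), and it fell with the set term (-0.64, adjusted p = 0.00135) and within replicates 1 and 2 (-1.01, adjusted p = 0.0182). Without the 5 libraries low in secretory markers it fell by 0.68 (adjusted p = 0.00696) with the set term. With no block the value was then -0.09, which sets replicates 3 and 4 at 24 h against replicates 2, 3 and 4 at 2 h. For PBS the change within replicates 3 and 4 was -0.5 (adjusted p = 0.0255), and within replicates 1 and 2 it was -1.78 (adjusted p = 0.0026). PSPH also fell with the set term in PBS (adjusted p = 5.64e-06) and with flagellin (adjusted p = 0.000201). The set term calls of all 3 treatments held without any 1 of the 8 libraries. Leaving out the 5 libraries gave -1.05 (adjusted p = 0.0631) in PBS and -0.64 (adjusted p = 0.267) with flagellin, with no block. The set term then gave -1.17 and -0.95.

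SHMT2 had group means of 21.1 to 27.7 CPM and the narrowest range of the 8. Its log2 fold changes over the 9 comparisons lay between -0.01 and 0.30 with no block, and none passed. It rose in PBS at 24 h (26.0 ± 1.84 CPM) against 2 h (21.1 ± 3.69 CPM; SD, n = 4 each) with the set term (log2 fold change 0.30, adjusted p = 0.0485) and not in the other fits over all libraries, a call lost without replicate 2, 3 or 4 at 24 h or replicate 2 or 3 at 2 h (adjusted p of up to 0.164).

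SLC7A5, the transporter subunit that imports large neutral amino acids such as leucine, was lower at 24 h in each of the 12 pairs of libraries with the same treatment and number. With SB203580 plus flagellin it had 71.6, 46.5, 21.4 and 39.4 CPM at 24 h and 116, 79.6, 64.5 and 72.5 CPM at 2 h. With flagellin it had 45.3, 77.0, 26.6 and 28.6 CPM at 24 h and 119, 109, 72.5 and 73.5 CPM at 2 h. In PBS it had 43.1, 41.8, 21.3 and 32.8 CPM at 24 h and 88.2, 77.3, 56.5 and 66.0 CPM at 2 h. Only the PBS libraries show no overlap between the times. The log2 fold changes were -0.89 (adjusted p = 0.133), -1.08 (adjusted p = 0.0607) and -1.05 (adjusted p = 0.0586) in the order of the sentences above in edgeR with no block. The first passed once number 1 was left out at 24 h (adjusted p = 0.0495), and the next once number 2 was left out at 24 h (adjusted p = 0.0124). All passed with no block without the 5 libraries low in secretory markers. The values there were -1.25 (adjusted p = 0.0466), -1.48 (adjusted p = 0.00525) and -1.02 (adjusted p = 0.0292) in the same order. The set term without them gave -1.0, -1.38 and -1.11. DESeq2 over all libraries called SLC7A5 with flagellin (adjusted p = 0.0252) and in PBS (adjusted p = 0.0236), not with SB203580 plus flagellin (adjusted p = 0.0812). With the block SLC7A5 fell in each, with -0.97 (SE 0.193, adjusted p = 0.00228), -1.13 (SE 0.194, adjusted p = 0.000612) and -1.09 (SE 0.194, adjusted p = 0.000767), and each call held without any 1 of its 8 libraries. For flagellin against PBS no fit gave SLC7A5 past the threshold at either time.

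With group taken into account and averaged over both times, 6 of the 8 genes differed between replicates 3 and 4 and replicates 1 and 2, where 68.3% of all genes did, so the share of these genes is close to the background. At 24 h alone 5 of 8 passed, where 64.6% of all genes did, and at 2 h alone 6 of 8, where 52.0% did. PPP1R15A (log2 fold change -1.22, SE 0.0889, adjusted p = 7.04e-10), SLC7A5 (-0.72, adjusted p = 1.59e-05), PSAT1 (-0.69, adjusted p = 3.6e-05), TRIB3 (-0.45, adjusted p = 0.000148) and PHGDH (-0.37, adjusted p = 0.00844) were lower in replicates 3 and 4, and PSPH (0.73, SE 0.0774, adjusted p = 9.21e-08) was higher. Each held without any 1 of the 24 libraries. ASNS (-0.12, adjusted p = 0.107) and SHMT2 (-0.11, adjusted p = 0.154) did not pass. Squamous cell markers, 7 of 12 with a row, differed the same way, at 4.21 to 5.45 log2 CPM in replicates 3 and 4 and 6 to 8.8 in replicates 1 and 2, and club and secretory cell markers lay at 3.54 to 5.77 and 5.25 to 7.83. Their part in the differences was not tested.

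The set difference changed with time for 3 of the 8 genes, where 35.0% of all genes changed, so this share is also close to the background. At 24 h PPP1R15A had a lowest, median and highest value of 37.7, 39.8 and 56.4 CPM in replicates 3 and 4 and of 90.0, 126 and 177 CPM in replicates 1 and 2, which do not overlap (log2 fold change -1.59, against -0.84 at 2 h). PSPH had 9.42, 11.2 and 15.8 CPM in replicates 3 and 4 at 24 h and 3.6, 5.12 and 6.45 CPM in replicates 1 and 2, again with no overlap (1.19, against 0.27 at 2 h). PHGDH had 27.4, 38.8 and 103 CPM in replicates 3 and 4 at 24 h and 33.2, 45.5 and 56.7 CPM in replicates 1 and 2, which overlap. At 2 h it had 21.2, 26.8 and 36.9 CPM in replicates 3 and 4 and 40.9, 47.7 and 56.4 CPM in replicates 1 and 2, which do not (0.06 at 24 h, against -0.80 at 2 h). The ATF4 row changed sign, with -0.37 at 24 h (adjusted p = 0.00214) and 0.42 at 2 h (adjusted p = 0.00131).

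**Figure D3:**
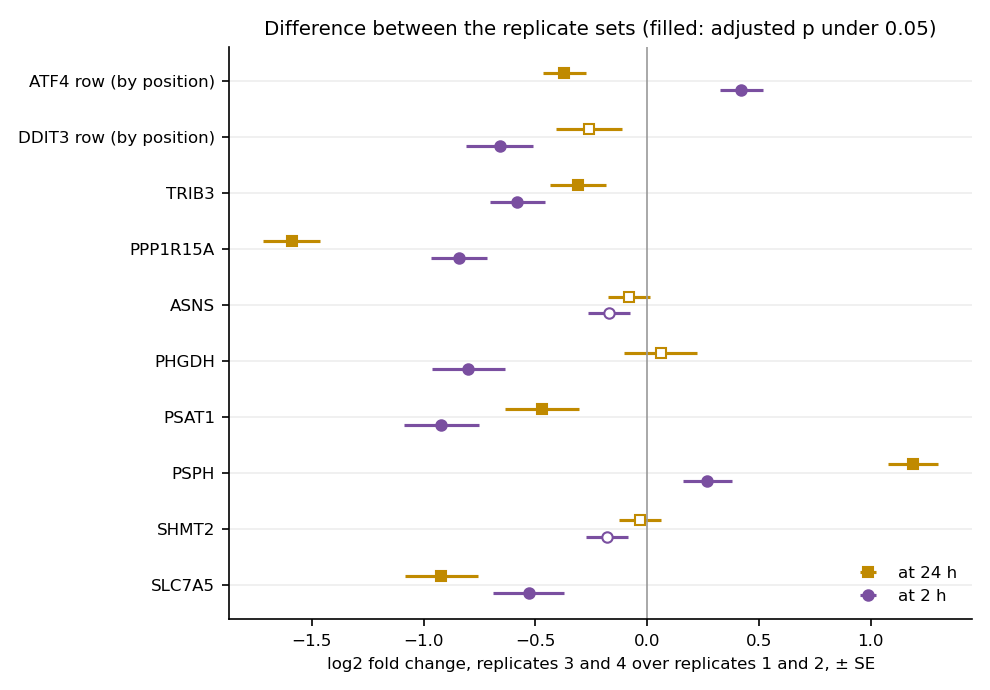
Log2 fold change of replicates 3 and 4 over replicates 1 and 2 with its SE (horizontal axis) for the 10 rows, at 24 h (squares) and at 2 h (circles), with 6 libraries of each set at each time; filled symbols have an adjusted p under 0.05. PPP1R15A lies at -1.59 at 24 h and -0.84 at 2 h, and the ATF4 row lies on opposite sides of 0 at the 2 times.

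Other genes of the pathway were taken from 5 lists with 120 symbols, of which 111 had a row and 108 were tested. Over the treatments, none of the 108 passed in edgeR with no block in any of the 6 comparisons, where 0% to 0.325% of all genes passed, with at most 3 genes of a list at an unadjusted p under 0.05 in each. DESeq2 called 1 gene of the ATF4 target list, with flagellin against PBS at 2 h, and 0 in the other lists and comparisons of treatments. With the block GDF15, a stress cytokine that ATF4 can induce, rose with flagellin against PBS at 2 h by 1.1 on the log2 scale (32.8 CPM with flagellin and 15.4 CPM in PBS, adjusted p = 0.0113; adjusted p = 0.139 with no block), higher in 4 of 4 replicates. DNAJB9, a chaperone of the endoplasmic reticulum, fell with SB203580 plus flagellin against PBS at 2 h by 0.63 (32.6 and 50.9 CPM, adjusted p = 0.01). In these 2 comparisons 1.07% and 0.804% of all genes passed with the block, so 1 of the 108 in each is close to the background. GDF15 and DNAJB9 also passed with the set term, and so did 4 genes that passed neither with no block nor with the block. PPP1CB, a catalytic subunit of protein phosphatase 1, fell by 0.39 (adjusted p = 0.0415) with flagellin against PBS at 2 h. MTHFD2 fell by 0.35 (adjusted p = 0.0206) with SB203580 plus flagellin against PBS at 2 h. At 24 h AMT, an enzyme of glycine cleavage, rose by 1.09 with SB203580 plus flagellin against PBS (19.6 and 9.95 CPM, adjusted p = 0.0167), and SFXN3, a mitochondrial carrier of the sideroflexin family, by 1.27 (24.2 and 11.4 CPM, adjusted p = 0.0358). In these 3 comparisons 2.24%, 1.98% and 0.459% of all genes passed with the set term. Of the 108 genes 2 passed in each, and at 2 h that is close to the background.

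Over time the list of aminoacyl-tRNA synthetases, with the tRNA exporter XPOT, gave calls in one direction. In PBS 8 of 14 fell at 24 h against 2 h with no block, where 4.88% of all genes fell, and 0 rose. They were NARS1, LARS1, IARS1, SARS1, MARS1, XPOT, EPRS1 and GARS1, with log2 fold changes between -0.48 and -0.31. The median of the list was -0.31, beside -0.01 over all genes tested. EPRS1, for example, averaged 79.3 CPM at 24 h and 111 CPM at 2 h. With flagellin 2 of 14 fell (SARS1 and MARS1) with no block and 8 of 14 with it, where 3.68% and 9.26% of all genes fell, and the median was -0.27 beside 0.01 over all genes. Those called with the block and not without it were EPRS1 (-0.44), XPOT (-0.35), GARS1 (-0.28), WARS1 (-0.27), NARS1 (-0.25) and YARS1 (-0.23). In SB203580 plus flagellin cultures 2 of 14 fell (MARS1 and NARS1) with no block and 4 of 14 with it, where 3.18% and 8.42% of all genes fell, and the median was -0.22 beside 0.01. EPRS1 (-0.37) and SARS1 (-0.35) were called with the block and not without it. With the set term 9 of 14 fell with SB203580 plus flagellin, 12 with flagellin and 10 in PBS, where 13.5%, 14.4% and 17.4% of all genes fell, and 0 rose. Fitted on the 2 times of each treatment alone, the counts that fell were 0 with SB203580 plus flagellin, 1 with flagellin and 0 in PBS. The MARS1 row shares exon bases with the DDIT3 row, as given above.

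The list of 31 tested ATF4 target genes went both ways. ERO1A, an oxidase of the endoplasmic reticulum that also responds to low oxygen, rose at 24 h in each treatment, by 2.43 on the log2 scale with SB203580 plus flagellin (353 CPM at 24 h and 65.5 CPM at 2 h), 2.44 with flagellin and 2.22 in PBS. STC2, a secreted glycoprotein, rose by 2.11, 1.88 and 1.5 in the same order. ATF3, a transcription factor that follows ATF4 but also many other signals, fell (-1.27, -1.45 and -1.29), with 95.5 CPM at 24 h and 234 CPM at 2 h in PBS. GDF15 fell with SB203580 plus flagellin (-1.49) and with flagellin (-1.8). SLC6A9, a glycine transporter, fell with flagellin (-0.95) and in PBS (-1.01), and SLC7A11, the cystine transporter, fell in PBS (-1.19). In all, 2 rose and 3 fell with SB203580 plus flagellin, 2 rose and 5 fell with flagellin, and 2 rose and 3 fell in PBS, all with no block, and the list medians were 0.01, -0.17 and -0.2. Over all genes 3.70% rose and 3.18% fell with SB203580 plus flagellin, 4.23% and 3.68% with flagellin, and 5.28% and 4.88% in PBS. The other genes of these counts were ALDH18A1, a proline synthesis enzyme, which fell with SB203580 plus flagellin (-0.45) and with flagellin (-0.4), and ATF5, a transcription factor, which fell by 0.64 with flagellin.

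With the block the same list gave 6 that rose and 5 that fell with SB203580 plus flagellin, 2 and 9 with flagellin, and 4 and 8 in PBS, where 8.67% of all genes rose and 8.42% fell, 9.54% and 9.26%, and 11.0% and 11.4%. With the set term it gave 7 and 7, 4 and 11, and 5 and 9 in the same order, where 13.6% of all genes rose and 13.5% fell, 14.5% and 14.4%, and 15.8% and 17.4%. NUPR1, a small stress-induced nuclear protein, fell in each (-1.6 with SB203580 plus flagellin, -1.96 with flagellin and -1.03 in PBS). SLC3A2, the heavy chain that partners SLC7A5 at the cell surface, fell with flagellin (-0.47, adjusted p = 0.0372) and in PBS (-0.44, adjusted p = 0.0424). CBS, an enzyme that draws on serine to make cystathionine, rose by 0.67 with SB203580 plus flagellin and by 0.77 in PBS. Further calls with the block and not without it were VEGFA (0.38), VLDLR (0.53), CEBPG (0.24) and SLC6A9 (-0.88) with SB203580 plus flagellin, SLC1A4 (-0.8) and SLC7A11 (-0.65) with flagellin, and EIF4EBP1 (0.38), SLC38A2 (-0.6), GDF15 (-0.76) and ALDH18A1 (-0.34) in PBS.

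Among 21 tested genes of serine, glycine and one-carbon metabolism, 3 rose and 1 fell with SB203580 plus flagellin, 3 rose and 1 fell with flagellin, and 4 rose and 2 fell in PBS, with medians of 0.13, 0.0 and -0.19. In either direction 6.88%, 7.90% and 10.2% of all genes passed. SFXN1, the mitochondrial serine carrier, rose by 0.58, 0.7 and 0.71 in that order, and PGK1, a glycolytic enzyme upstream of serine synthesis, by 0.64, 0.86 and 0.77. MAT2A, which makes S-adenosylmethionine, fell (-0.61, -0.76 and -0.78). The others were MTHFD2L, a mitochondrial folate enzyme, which rose with SB203580 plus flagellin (1.05) and in PBS (0.87), PGAM1, a glycolytic enzyme, which rose with flagellin (0.47) and in PBS (0.37), and TYMS, thymidylate synthase, which fell in PBS (-0.65). With the block MTHFD2, which works with SHMT2 in mitochondria, rose by 0.33 with SB203580 plus flagellin (adjusted p = 0.0143), as did PGAM1 (0.36), and MTHFD2L rose with flagellin (0.7). The block gave 5 that rose and 1 that fell with SB203580 plus flagellin, 4 and 1 with flagellin, and 4 and 2 in PBS, where 17.1%, 18.8% and 22.5% of all genes passed. The set term gave 6 and 2, 4 and 4, and 5 and 5 in the same order, where 27.1%, 28.9% and 33.2% passed.

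Of 19 tested genes of eIF2, its kinases, its exchange factor eIF2B and its phosphatases, EIF2B3, a subunit of eIF2B, fell with flagellin (-0.47) and in PBS (-0.6) with no block. EIF2S1, the subunit of eIF2 that is phosphorylated, fell in PBS (-0.43, adjusted p = 0.0483), as did DNAJC3, an inhibitor of eIF2 kinases (-0.38). With SB203580 plus flagellin 0 of 19 passed with no block, and EIF2B3 (-0.37) and DNAJC3 (-0.27) fell with it. PPP1CB in PBS (-0.34) and IMPACT with flagellin (0.41) passed with the block and not without it. In all 0, 1 and 3 passed with no block (SB203580 plus flagellin, flagellin, PBS), where 6.88%, 7.90% and 10.2% of all genes passed, and 2, 2 and 4 with the block, where 17.1%, 18.8% and 22.5% did. With the set term 1 rose and 5 fell, 0 and 4, and 0 and 5 in that order. There 13.6%, 14.5% and 15.8% of all genes rose, and 13.5%, 14.4% and 17.4% fell. The list medians were -0.03 with SB203580 plus flagellin, -0.04 with flagellin and -0.06 in PBS. Of 23 tested genes of the IRE1 and ATF6 arms, DNAJB11, a co-chaperone of the endoplasmic reticulum, fell in each treatment (-0.63 with SB203580 plus flagellin, -0.49 with flagellin and -0.62 in PBS). EDEM1, which targets misfolded glycoproteins for degradation, rose by 0.5, 0.54 and 0.42 in that order, and the list medians were -0.13, -0.07 and -0.16. CRELD2 (-0.51) and CALR (-0.48) also fell with SB203580 plus flagellin, and DNAJC10 (-0.45) in PBS. MANF, a secreted protein of the stressed endoplasmic reticulum, fell in each treatment with the block (-0.45, -0.5 and -0.53). The other calls with the block and not without it were HSPA5, HYOU1 and HSP90B1 with SB203580 plus flagellin, DNAJC10 and XBP1 with flagellin, and DNAJB9, HSP90B1 and PDIA4 in PBS, with log2 fold changes between -0.5 and -0.23. The counts that rose and fell in this list were 1 and 3, 1 and 1, and 1 and 2 with no block. There 3.70%, 4.23% and 5.28% of all genes rose, and 3.18%, 3.68% and 4.88% fell. With the block they were 1 and 7, 1 and 4, and 1 and 6. There 8.67%, 9.54% and 11.0% of all genes rose, and 8.42%, 9.26% and 11.4% fell. With the set term they were 1 and 10, 1 and 4, and 1 and 9, beside the shares that rose and fell given above.

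**Figure D4:**
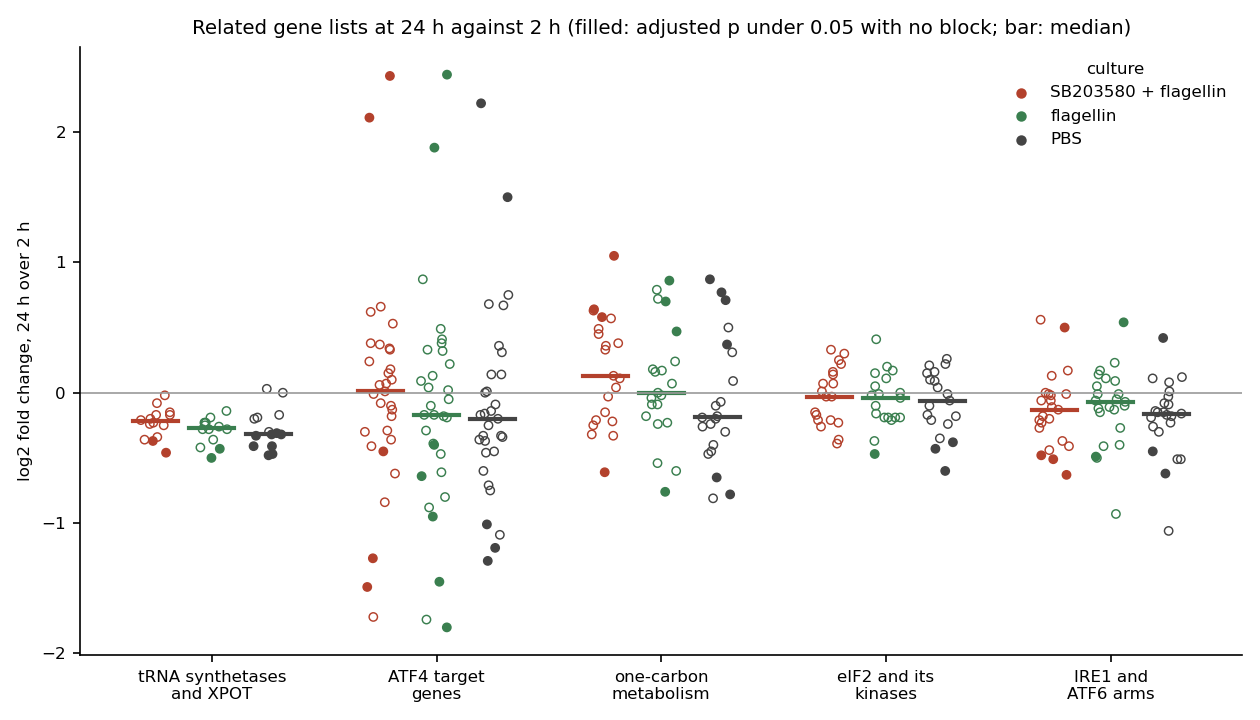
Log2 fold change at 24 h over 2 h (vertical axis) of every tested gene of 5 related lists, from edgeR with no block, for cultures with SB203580 plus flagellin, with flagellin and in PBS; filled points have an adjusted p under 0.05 and bars are list medians. The synthetase list has medians of -0.22, -0.27 and -0.31, and the highest points of the ATF4 target list are ERO1A and STC2.

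By the root mean square difference of centred log2 group means over the 6 groups, the 5 named genes most like the ATF4 row were ZNF200 (0.0291), C2CD2L (0.0328), TSPAN10 (0.0406), ITPRIP (0.0461) and DHODH (0.0474). Those most like SLC7A5 were RASGRP1 (0.0652), LRAT (0.0737), GPRIN1 (0.0808), MMP28 (0.0849) and IRS2 (0.089). Both lists were drawn from the tested genes with a symbol, 11856 in all, and unnamed genes were passed over. Neighbouring group means of the ATF4 row differed by no more than the larger of their SDs.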

How the data were processed

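RNA of 24 libraries of pig bronchial epithelial cells was sequenced as read pairs, per the labels. The authors deposited 1 table with raw whole-number counts for each gene, before any normalization, together with gene coordinates and exonic length, per the file headers. STAR 2.4.0a, featureCounts and Subread 1.4.6-p1 are named in the submitters' processing notes, which also name GRCm38, a mouse build, although the rows are pig genes. Neither the pig assembly nor whether counting used strand is stated in the labels, headers or notes, so where genes overlap on opposite strands their reads cannot be told apart. The table had 31868 features, and the 5988 that were not pig genes (at most 0.0051% of a library's counts) were left out.

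Symbols came from a table of pig identifiers, which named 14857 of 25880 genes. ATF4 and DDIT3 were placed by overlap with RefSeq genes of Sscrofa11.1, used for names alone, a check in which 93.1% of 7973 rows with a symbol gave the same one. The members and lists were chosen with earlier results of these data known. The rule for named genes took all 10 genes and, of the lists, each gene past the threshold with no block or with the replicate block, and, where a list had none in a comparison, up to 3 with the largest change the same way in 4 of 4 replicates. The last kind is not given in the text. The table had 0 per-sample columns of unknown sample.

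Genes were kept by edgeR's filterByExpr rule, which left 14172, and scaled with TMM factors of 0.836 to 1.07. The test was edgeR's robust quasi-likelihood F test (edgeR 4.0.16, R 4.3.3; tested on simulated data) over all 24 libraries with 1 term per group, 18 residual degrees of freedom and Benjamini-Hochberg adjustment. P-values are two-sided and edgeR's, except where DESeq2 (1.42.0) is named. SEs were obtained from the log2 fold change and the F statistic (its size over the root of F). Deviations of same-numbered libraries from their group means correlated at 0.21 to 0.8 in all 36 pairs, so the replicate number was treated as pairing them. Deviations from the mean of the replicate set in the group correlated at -0.42 to 0.36, so the pairing lies in the set. The fits with a replicate block and with a separate set term for 24 h and 2 h are given beside a result where they change it, for the lists as counts. No 2 libraries of a group agreed within sampling noise (chi-square per gene 10.3 to 390 over 36 pairs). Alternatives were RLE factors, no filter, DESeq2, the groups compared alone, each set alone, each library left out, and, chosen after seeing the data, the 5 libraries low in secretory markers left out, with no block or with the set term.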

Additional observations from a re-analysis of the deposited data

Results flagged for a closer look

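PHGDH in PBS at 24 h had 1 library apart from the others of its group. Replicate 4 lay at 27.4 CPM and the other 3 at 36.0 to 36.9 CPM, a gap of 0.905 of the group's range and past Dixon's 95% critical value for 4 samples. This was the 1 such library among 60 groups of 4 tested, and chance marks about 1 group in 20.

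The difference between the replicate sets (3 and 4 against 1 and 2) differed between 24 h and 2 h by an interaction term in edgeR for 3 of the 8 genes and the ATF4 row, where 35.0% of all genes did. The share of the 8 is close to that of all genes. The comparison was added after seeing the data. The change, at 24 h minus at 2 h on the log2 scale, was -0.75 for PPP1R15A (SE 0.176, adjusted p = 0.00244), 0.92 for PSPH (SE 0.155, adjusted p = 0.000119), 0.86 for PHGDH (SE 0.231, adjusted p = 0.00672) and -0.79 for the ATF4 row (SE 0.136, adjusted p = 0.000157).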

How the results depend on the processing

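Counts below are of the 8 genes past the threshold. With the replicate block the count was 1 for flagellin against PBS at 2 h (0 with none), 4 for 24 h against 2 h in PBS (0 with none), 5 with flagellin (2 with none) and 3 with SB203580 plus flagellin (0 with none), and the block changed no other count. With the term for the replicate set the same 4 comparisons gave 2, 5, 5 and 4, and SB203580 plus flagellin gave 1 against flagellin at 2 h and 1 against PBS at 24 h. In replicates 3 and 4 alone the counts were 1, 2, 4 and 4 for the 4 comparisons, and in replicates 1 and 2 alone 1 for 24 h against 2 h in PBS and 1 with SB203580 plus flagellin. Fitting the groups compared alone gave 1 in PBS and 1 with flagellin, DESeq2 gave 2 in PBS, and no filter gave 1 with flagellin. For 24 h against 2 h with flagellin, DESeq2 called TRIB3 (adjusted p = 6.87e-05), ASNS (adjusted p = 0.0191) and SLC7A5 (adjusted p = 0.0252). Replicates 1 and 2 alone called TRIB3 (adjusted p = 0.00335), PSPH (adjusted p = 0.011) and ASNS (adjusted p = 0.0492) there. Changes of a count by at most 1.5 times are otherwise not listed. Without the 5 libraries low in secretory markers the time comparisons gave 1 in PBS and 2 with SB203580 plus flagellin. The same libraries left out with the set term gave 2 for flagellin against PBS at 2 h, 1 for SB203580 plus flagellin against flagellin at 2 h, 1 against PBS at 24 h, 5, 6 and 4 for the time comparisons in PBS, with flagellin and with SB203580 plus flagellin, and 1 for the change of the flagellin effect. Leaving out 1 library at a time gave 0 to 1 in PBS, 0 to 1 with SB203580 plus flagellin, 1 to 2 with flagellin, 6 to 7 for the replicate sets and 0 for the other comparisons. RLE factors changed no count by more than 1.5 times.

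The ATF4 row turned in direction: -0.09 for 24 h against 2 h with SB203580 plus flagellin in replicates 3 and 4 alone, and, for the replicate sets, -0.37 at 24 h alone and -0.01 to 0.06 with 1 library left out. For PHGDH the set difference was 0.06 at 24 h alone. The cause was not tested. Libraries of 26345945 to 36267289 counts put the limit of 3 counts at 0.0827 to 0.114 CPM, far below every value given for these genes. The spread between the replicate sets limits the fits with no block, in which PPP1R15A had an SE of 0.503 at 2 h, against 0.152 with the set term.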
